A study of Mus musculus with 27 samples.

Results

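The genes described here run the glutathione and thioredoxin systems or are targets of the transcription factor NRF2. They are a list of 49 gene symbols, chosen by name with earlier results of these data known. The symbols were looked up in the annotation of the array. Of these, 46 had at least 1 annotated probe, and together they held 85 of the 45281 probes. No probe was named here for Gsr, Prdx5 and Prdx6. The probes came from Illumina MouseWG-6 v2 BeadChips, on which each probe gives 1 signal per array.

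Male C57BL/6J mice (the strain is also spelled C56BL/6J in the sample labels), 4 weeks old on arrival, were fed for 16 weeks. The normal diet (ND) group received a semi-purified diet. The high-fat diet (HFD) group received a diet with 20% fat and 1% cholesterol, and the UR group that HFD with ursolic acid, a plant triterpenoid, added at 0.05% by weight. Liver, epididymal white adipose tissue (WAT) and gastrocnemius muscle were taken after a fast. Each of the 9 combinations of diet and tissue had 3 arrays of pooled RNA. No source used here says which mice entered a pool, so each n counts pools and p-values measure only the spread between them.

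NRF2, encoded by Nfe2l2, is a transcription factor that KEAP1 holds in the cytoplasm and marks for breakdown. Oxidants and electrophiles modify cysteines of KEAP1, after which NRF2 accumulates, pairs with small MAF proteins and binds antioxidant response elements in front of its targets. Glutathione is made by glutamate-cysteine ligase (Gclc and its modifier Gclm) and glutathione synthetase (Gss), and glutathione transferases couple it to reactive molecules. Glutathione peroxidases and peroxiredoxins remove peroxides, and thioredoxin (Txn1) with thioredoxin reductase (Txnrd1) keeps peroxiredoxins reduced. TXNIP binds and blocks thioredoxin, and sulfiredoxin (Srxn1) repairs over-oxidised peroxiredoxins. The liver is known for high levels of most of these enzymes.

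Bases in front of 5 of the genes are printed because the antioxidant response element is the known site of NRF2 action and because these genes carry several of the differences given later. They are RefSeq windows of build GRCm38.p6, written 5′ to 3′ on the strand of the gene, and they stop where any transcript of the gene starts. Capitals mark the core TGACNNNGC on either strand, where N is any base.
Gsta1: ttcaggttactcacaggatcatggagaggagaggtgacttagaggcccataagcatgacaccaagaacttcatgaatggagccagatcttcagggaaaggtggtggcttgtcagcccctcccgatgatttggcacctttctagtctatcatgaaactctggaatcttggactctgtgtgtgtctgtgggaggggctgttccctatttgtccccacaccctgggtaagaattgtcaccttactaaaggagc
Gsta2: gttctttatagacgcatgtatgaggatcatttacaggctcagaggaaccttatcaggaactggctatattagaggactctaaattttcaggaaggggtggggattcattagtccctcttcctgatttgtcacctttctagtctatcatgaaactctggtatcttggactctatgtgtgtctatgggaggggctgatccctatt
Gsta3: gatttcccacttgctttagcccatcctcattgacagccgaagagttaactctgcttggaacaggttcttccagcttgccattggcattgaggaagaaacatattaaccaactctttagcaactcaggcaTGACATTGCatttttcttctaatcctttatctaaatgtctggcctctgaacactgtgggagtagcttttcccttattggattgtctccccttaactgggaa
Gclm: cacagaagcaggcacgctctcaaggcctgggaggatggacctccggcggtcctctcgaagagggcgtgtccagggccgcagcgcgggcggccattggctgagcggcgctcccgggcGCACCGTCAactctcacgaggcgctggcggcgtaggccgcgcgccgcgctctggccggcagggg
Prdx1: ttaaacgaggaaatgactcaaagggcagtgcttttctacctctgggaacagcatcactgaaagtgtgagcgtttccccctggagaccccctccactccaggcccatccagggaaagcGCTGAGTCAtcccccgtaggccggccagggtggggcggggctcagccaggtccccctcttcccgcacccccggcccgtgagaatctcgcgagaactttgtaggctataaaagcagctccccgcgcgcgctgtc
They lie at chr9:78230419-78230668 (plus strand), chr9:78347193-78347395 (minus strand), chr1:21240335-21240564 (plus), chr3:122245307-122245486 (plus) and chr4:116685349-116685598 (plus), in the order printed. Gsta3 held TGACATTGC at position -121 from the start of its window's transcript, and Gclm and Prdx1 held the core on the other strand at -134 and -133. Gsta1 and Gsta2 held no match in their windows, and these were identical at 184 of 261 aligned positions (70.5%). A window was given for 42 of the 49 genes. The core was found within 250 bases before the start in 9 of their 55 windows (16.4%), against 10.2% of all 32851 windows. The other genes with a match were Gstm5, Gstm7, Mgst1, Txnrd1, Sod1 and Nfe2l2. Bases further upstream were not searched, so a window without a match does not mean that the gene lacks the element. A match describes the sequence only.

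A probe was kept in a tissue when its detection p-value was under 0.05 on all 3 arrays of at least 1 diet. This left the liver with 75 member probes of 44 genes, WAT with 67 probes of 42 genes and muscle with 65 probes of 45 genes. Gstm3 was kept in none of the tissues. Mgst2 was not kept in the liver, and Gsta1, Gsta2 and Gclc were not kept in WAT. Of the kept member probes, 69, 64 and 56 were detected on all 9 arrays of their tissue, and the remaining 6, 3 and 9 on some of them. All levels below are log2 quantile-normalised signals within a tissue, and where genes are counted each is represented by its brightest kept probe. A probe passed the test when its adjusted p from limma was under 0.05.

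Among liver arrays, the summed signal of all probes was 33610124 to 36807245 for the ND, 34875716 to 36249494 for the HFD and 40602071 to 45514171 for UR. Shares of detected probes were 34.2 to 35%, 36.5 to 37.2% and 38.7 to 40% for these diets, without overlap. WAT arrays detected 42.2 to 44.4% of probes and muscle arrays 35.5 to 38.1%. The markers of each labelled tissue were present, with 8 of 10 hepatocyte markers detected on all liver arrays (Fgb and Tat on none), 7 of 7 measured adipocyte markers on all WAT arrays and 7 of 8 fibre markers on all muscle arrays. Macrophage markers of the liver summed to 5704 to 6220 on ND arrays, 10365 to 13071 on HFD arrays and 5317 to 6533 on UR arrays. In WAT the same sum was 15341 to 17476 on ND arrays, 64419 to 85927 on HFD arrays and 78403 to 98534 on UR arrays. RNA of a whole tissue cannot tell fewer cells of a type from less RNA per cell.

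With the ND, the 3 tissues held these genes at very different levels. Over the 27 arrays normalised together, 67 of 76 member probes differed between the liver and WAT (81.9% of all probes did), 72 of 76 between the liver and muscle (84.6%) and 65 of 70 between WAT and muscle (81.0%), which are shares near those of all probes. Of the 67, 48 were higher in the liver, and of the 72, 46 were (38.9% and 40.7% of all probes tested were higher in the liver). Gsta3, an alpha-class transferase, stood at 15.18 ± 0.11 (SD, n = 3) in the liver, followed by WAT at 13.67 ± 0.16 and muscle at 7.76 ± 0.22. Gpx3, the secreted glutathione peroxidase, had the opposite order between liver and fat, with 8.96 ± 0.07 in the liver, 11.10 ± 0.15 in muscle and 14.45 ± 0.27 in WAT. Mgst2, a microsomal transferase, was likewise brightest in WAT (11.75 ± 0.06), against 7.35 ± 0.09 in the liver and 7.83 ± 0.04 in muscle. Nqo1, the quinone reductase often read as an NRF2 target, was highest in muscle at 10.42 ± 0.14, with 8.40 ± 0.04 in the liver and 7.93 ± 0.06 in WAT. Nfe2l2 itself was highest in the liver (9.94 ± 0.11), followed by muscle (9.43 ± 0.18) and WAT (9.16 ± 0.17), each step past the test. These levels are those of the brightest probe of each gene. On that probe the liver and WAT did not differ past the test for Keap1, Cat, Hmox1, Gstm1 and Prdx2, while 3 dimmer probes of Keap1 (by 0.43, 1.15 and 1.03) and 1 of Cat (by 0.51) were higher in the liver, and the dimmer 2 of Prdx2 differed in opposite directions (0.25 and -0.31, liver minus WAT). Txnrd1 was detected on 0 of 3 liver arrays with the ND. Gpx1, the cytosolic glutathione peroxidase, lay near the top of the signal range in the liver at 15.89 ± 0.04.

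In the liver, the HFD raised transferases of the alpha and mu classes and all 3 NRF2 target enzymes of the list, and lowered Gstp1. Of 75 member probes 26 rose and 7 fell, against 24.9% of all kept probes past the test (13.3% up and 11.6% down). On brightest probes, 17 genes rose and 3 fell of 44, and the median difference was 0.16, against 0.00 over the brightest probes of all genes. Of 17518 kept probes in the liver, the member probes had a median 0.15 above the median of all with quantile normalisation and 0.10 above it with median scaling.

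The largest rise was that of Gsta1, an alpha-class transferase that detoxifies products of lipid peroxidation. Its brightest probe read 8.32, 8.54 and 8.19 with the ND and 11.61, 12.01 and 11.37 with the HFD, a log2 difference of 3.31 (SE 0.25, adjusted p = 2.63e-06). The 2 dimmer probes rose by 3.01 and 1.80, so that all 3 probes had their HFD arrays above every ND array. Gsta2, its close copy on the same chromosome, read 8.29, 7.66 and 7.72 with the ND and 9.79, 9.85 and 9.51 with the HFD (difference 1.82, SE 0.24, adjusted p = 0.000165). Probe sequences were not used here, so how far probes of near-identical transferases tell the copies apart was not tested. Gsta4, which acts on 4-hydroxynonenal, read 10.59, 10.37 and 10.83 with the ND and 11.26, 11.53 and 11.41 with the HFD (difference 0.81, SE 0.13). Gsta3 was the gene of the class that did not pass, with a difference of 0.09 (adjusted p = 0.297).

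Among the mu class, 3 of 6 kept genes rose and 0 fell. Gstm2 read 13.06, 12.48 and 13.04 with the ND and 14.09, 14.25 and 13.72 with the HFD (difference 1.16, SE 0.15), and its other 2 probes rose by 1.21 each. Gstm1, the main mu-class enzyme of mouse liver, read 13.37, 13.21 and 13.75 (ND) and 14.40, 14.48 and 14.23 (HFD), a difference of 0.93 (SE 0.14). The groups of both genes did not overlap. Gstm4 rose by 0.32, while Gstm5, Gstm6 and Gstm7 differed by 0.10, 0.24 and -0.04, short of the test.

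Of 8 genes of the pi, theta, kappa, omega and zeta classes, only Gstp1 passed on its brightest probe, and it fell. It read 14.99, 15.20 and 15.12 with the ND and 14.32, 14.15 and 14.38 with the HFD (difference -0.82, SE 0.07, adjusted p = 1.12e-05), and a second bright probe fell by 0.77. This pi-class transferase was thus lower in every HFD array than in every ND array, opposite to the alpha and mu genes. Mgst3, a microsomal transferase, rose by 0.41.

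The NRF2 target enzymes rose by smaller amounts. Ephx1, microsomal epoxide hydrolase, read 13.84, 13.95 and 14.06 with the ND and 14.45, 14.58 and 14.35 with the HFD (difference 0.51, SE 0.07). Nqo1 rose by 0.37 (SE 0.07) and Hmox1, the haem oxygenase, by 0.42 (SE 0.10). Nfe2l2 read 9.69, 9.91 and 9.84 with the ND and 10.12, 10.25 and 10.06 with the HFD, a rise of 0.33 (SE 0.08, adjusted p = 0.00806). Keap1 gave differences of -0.01, -0.03, -0.02 and -0.02 on its 4 probes, and 0 of them passed. Macrophage markers moved with these genes, with 7 of 7 kept markers up and Itgam detected on no liver array. So did 4 of 7 fibroblast and stellate cell markers (summed signals of 14414 to 15911 on ND arrays and 19438 to 21602 on HFD arrays), 3 of 5 endothelial markers (5809 to 6059 and 6723 to 7053) and both kept adipocyte markers (11045 to 12778 and 16960 to 18651, with Adipoq, Plin1, Fabp4 and Retn detected on no liver array). The part of these cell types in the members' rises was not tested.

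Of the peroxide and thioredoxin genes, Gpx4, which reduces lipid hydroperoxides, rose by 0.45 and Gpx3 by 0.26. Srxn1 rose by 0.44, extracellular superoxide dismutase (Sod3) by 0.44, Txn1 by 0.24 and Prdx1 by 0.19, the last of these short of the test with median scaling. Txnip, the thioredoxin inhibitor, read 13.12, 13.32 and 13.19 with the ND and 12.63, 13.10 and 12.75 with the HFD, a fall of 0.38 (SE 0.13, adjusted p = 0.0438), which was short of the test without any 1 of the ND arrays, HFD replicate 1, HFD replicate 3 or UR replicate 2. The dimmer Txnip probe read 11.61, 11.87 and 11.67 (ND) and 10.96, 11.39 and 11.19 (HFD), also without overlap. Prdx4, the peroxiredoxin of the endoplasmic reticulum, read 13.26, 13.22 and 13.40 (ND) and 13.06, 12.99 and 12.99 (HFD) and fell by 0.28 (SE 0.07). The genes of glutathione synthesis stayed short of the test on every probe, with 0.11 for Gclc, 0.15 for Gclm and 0.28 for Gss, though the brighter 2 of the 4 Gss probes passed with median scaling (0.35 and 0.27).

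Other genes of the pathway were counted on lists chosen by name, also with earlier results of these data known. Of 36 kept further NRF2 target and partner genes, 18 rose and 1 fell with the HFD in the liver (median 0.21 against 0.00 over all genes). Abcc3, an efflux pump for conjugates, rose by 0.81 and Cyp2a5, a cytochrome P450, by 1.58. Of 19 further glutathione and thioredoxin genes 6 rose and 3 fell, led by Gpx7 (0.65) and Oplah, the 5-oxoprolinase, which fell by 0.42. Of 20 peroxide, methionine sulfoxide and selenoprotein genes 2 rose and 2 fell. Among all kept probes of the liver, 13.3% rose and 11.6% fell.

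**Figure D1:**
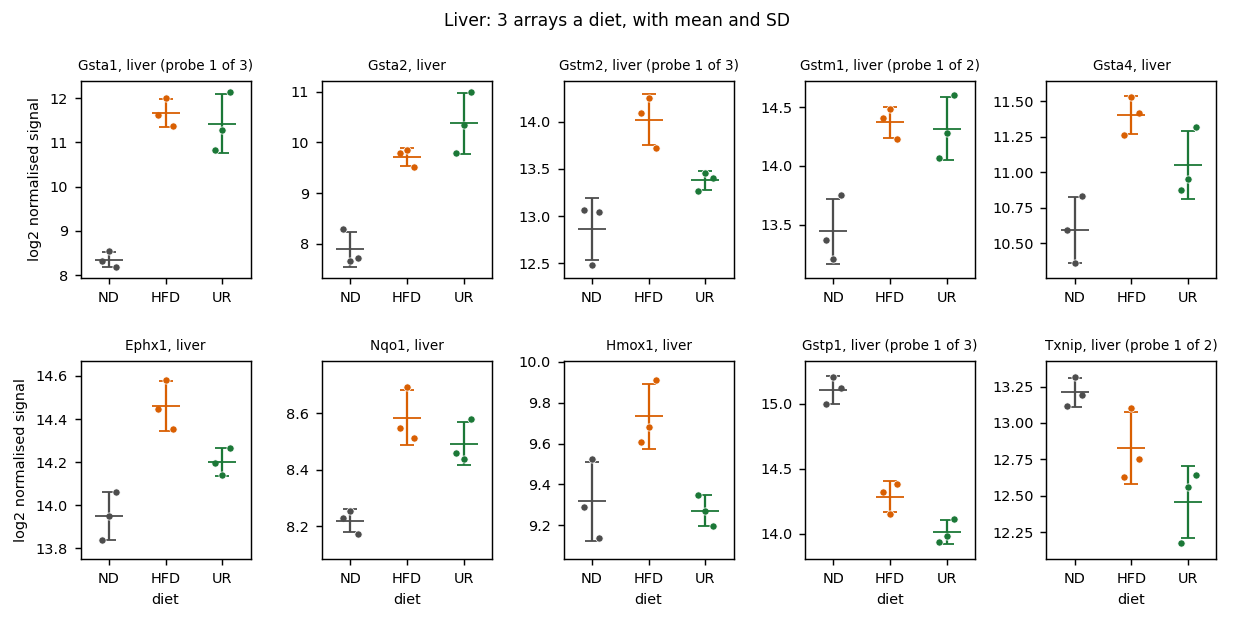
Log2 normalised signal (vertical axis, a scale of its own in each panel) of 10 genes in the liver by diet (horizontal axis); points are the 3 arrays of a diet, the bar and whiskers their mean and SD. Gsta1 read 8.19 to 8.54 with the ND and 11.37 to 12.01 with the HFD, while Gstp1 read 14.99 to 15.20 with the ND and 14.15 to 14.38 with the HFD.

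UR fed with the HFD was compared with the HFD alone, a comparison that shares its HFD arrays with the one just given, so the 2 sets of values are given side by side and not correlated. In the liver 24 of 75 member probes rose and 27 fell, against 55.1% of all kept probes past the test (21.9% up and 33.3% down). A probe could be kept through its UR arrays alone. Of the 69 member probes detected on all 9 liver arrays, 19 rose and 26 fell. The split between rises and falls rests on the scaling. With each array scaled to a common median, 33 member probes rose and 11 fell, against 35.2% and 12.5% of all kept probes, and the median of all kept probes moved by 0.17, from -0.07 to 0.10. The median of the member probes lay 0.02 above the median of all under quantile normalisation and 0.05 above it under median scaling. A total of 35 member probes passed in the same direction under both and 0 in opposite directions. The UR arrays of the liver also had the highest total signals and shares of detected probes, as given above, and the part of this in the results was not tested.

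The largest rise on a brightest probe was that of Txn1, and it held for 1 of its 2 kept probes. The brighter probe read 8.89, 8.73 and 8.87 with the HFD and 10.82, 10.86 and 10.82 with UR (difference 2.00, SE 0.07, adjusted p = 1.13e-09). The dimmer probe read 7.57, 7.65 and 7.56 (HFD) and 7.36, 7.34 and 7.28 (UR), and was at least 1.07-fold lower with UR, where it was detected on no array (adjusted p = 0.00107). Both of these probes carry 1 transcript record, and the other Txn1 probe on the array was not kept.

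Catalase (Cat), the peroxisomal enzyme that splits hydrogen peroxide, rose on both of its probes. The brighter read 13.61, 13.32 and 13.35 with the HFD and 14.51, 14.45 and 14.49 with UR (difference 1.06, SE 0.09, adjusted p = 6.29e-07), while its ND arrays read 13.58, 13.29 and 13.63, and the dimmer rose by 0.37. That dimmer probe had already risen with the HFD, from 8.52, 8.51 and 8.54 (ND) to 8.96, 8.87 and 9.07 (HFD), a difference of 0.44 (SE 0.07). Gstt3, a theta-class transferase, read 11.80, 11.74 and 11.45 with the HFD and 12.44, 12.59 and 12.40 with UR (difference 0.82, SE 0.10). On the brightest probe of each gene the HFD and ND groups overlapped and every UR array was above all the others.

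Glutathione synthesis genes, which had not passed with the HFD, moved with UR. Gclc read 7.67, 7.87 and 7.68 with the HFD and 8.31, 8.68 and 8.40 with UR (difference 0.72, SE 0.11, adjusted p = 8.96e-05). Its only kept probe was dim and detected on 8 of the 9 liver arrays. Gclm, also with only 1 kept probe, read 12.13, 12.12 and 12.28 (HFD) and 12.44, 12.60 and 12.66 (UR), a difference of 0.39 (SE 0.07). Both subunits of glutamate-cysteine ligase were thus higher in every UR array than in every HFD array. The window in front of Gclm printed above holds the core motif. No window was given for Gclc, and those of Txn1, Cat and Gstt3, which rose more on their brightest probes, held no match. The part of the motif in these differences was not tested. Gss had a difference of -0.25 on its brightest probe, past the test with quantile normalisation but at -0.01 with median scaling.

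Prdx1, a cytosolic peroxiredoxin whose window also holds the core, rose by 0.31 (SE 0.06, adjusted p = 0.000553) on its bright probe. Its dim probe was at least 1.86-fold higher with UR, being detected on no HFD array. Txnrd1, thioredoxin reductase, was at least 1.11-fold higher by the same bound. Neither ND nor HFD arrays detected its only probe, which was kept through the UR arrays alone and lay close to the detection limit. Sod2, the mitochondrial superoxide dismutase, rose by 0.26, Gstm4 by 0.24 and Gstm5 by 0.37. On the dimmer Mgst1 probe the HFD arrays read 14.27, 14.20 and 14.24 and the UR arrays 14.85, 14.90 and 15.035. The brightest Mgst1 probe did not pass. Gsta2 rose by 0.66 (SE 0.24, adjusted p = 0.0313), with 9.79, 9.85 and 9.51 on the HFD arrays and 9.78, 10.35 and 10.99 on the UR arrays, so these groups overlapped. Without UR replicate 3 its difference was 0.35 and short of the test, and leaving out HFD replicate 1, HFD replicate 3 or UR replicate 2 also ended the call.

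Other members fell in the liver with UR, among them enzymes of conjugation, peroxide removal and haem breakdown. Gstm2 read 14.09, 14.25 and 13.72 with the HFD and 13.27, 13.46 and 13.41 with UR (difference -0.64, SE 0.15), between its ND and HFD levels, and all 3 of its probes fell. Sod3 read 8.54, 8.83 and 8.79 (HFD) and 7.96, 8.23 and 8.45 (UR), a difference of -0.50 (SE 0.11), against 8.24, 8.25 and 8.34 with the ND. Gpx3 read 8.95, 9.19 and 9.03 (HFD) and 8.54, 8.47 and 8.71 (UR), a difference of -0.48 (SE 0.08). In these genes every UR array was below every HFD array.

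Hmox1 read 9.61, 9.68 and 9.91 with the HFD and 9.35, 9.27 and 9.20 with UR, a fall of 0.46 (SE 0.10) that became -0.23 and short of the test with median scaling. Gpx4 read 14.07, 14.13 and 13.96 (HFD) and 13.63, 13.56 and 13.61 (UR) on its brightest probe, a fall of 0.45 (SE 0.06), while its other probe had a difference of 0.11. Srxn1 fell by 0.38, Prdx3 by 0.43, Gsta4 by 0.35, Ephx1 by 0.26 and Txnip by 0.37 with quantile normalisation, and with median scaling these 5 kept the sign but not the call. The HFD and UR arrays of Gsta4 and Txnip overlapped, and the call for Txnip was also lost without HFD replicate 2 or UR replicate 1. Prdx4 fell by 0.18 and had a difference of 0.11, short of the test, with median scaling. Of 7 kept macrophage markers 5 fell and 2 rose in the same comparison, 4 of 5 endothelial markers fell, and their part in these falls was not tested.

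Nfe2l2 read 10.12, 10.25 and 10.06 with the HFD and 10.01, 10.16 and 10.11 with UR, a difference of -0.05 (SE 0.08, adjusted p = 0.622), and with median scaling it was 0.22 and past the test (adjusted p = 0.0426). The direction for Nfe2l2 in the liver with UR thus depends on the scaling. Nqo1 had a difference of -0.09 (adjusted p = 0.273). Against the ND, 37 member probes rose and 17 fell in the UR group, where 60.1% of all kept probes passed (25% up and 35.1% down), and with median scaling 47 rose and 10 fell.

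Probes of the same gene disagreed in the liver with UR. Among the 20 members with over 1 kept probe, 6 held called probes of both signs (Gsta1, Gstk1, Gstp1, Keap1, Prdx2 and Txn1), against 566 of 3566 genes overall (15.9%). With the HFD these were 0 of 20 members and 14 of 3566 genes (0.393%), and with UR in WAT and muscle 0 of 17 and 0 of 14 members (0.176% and 1.87% of genes). For each of the 6 genes the probes concerned carry 1 transcript record in the annotation.

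Gstk1, a transferase of mitochondria and peroxisomes, read 14.30, 14.12 and 14.09 with the HFD and 13.63, 13.51 and 13.43 with UR on its brighter probe, a fall of 0.65 (SE 0.09). Its other probe, also bright, read 13.06, 13.06 and 13.04 (HFD) and 13.80, 13.85 and 13.92 (UR), a rise of 0.81 (SE 0.10). No array of one group crossed into the other on either probe. The HFD moved both probes alike, by 0.11 and 0.15, neither past the test.

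Gstp1 fell by 0.27 on its brightest probe (14.32, 14.15 and 14.38 with HFD against 13.94, 13.98 and 14.11 with UR), a call lost with median scaling. Its dimmest probe read 7.59, 7.30 and 7.44 with the HFD and 8.70, 8.65 and 8.87 with UR, a rise of 1.29, with 1 of 3 HFD arrays and 3 of 3 UR arrays detecting it. Gsta1 fell by 0.77 on its second probe (10.74, 11.45 and 10.55 with HFD against 9.55, 10.04 and 10.85 with UR) and rose by 0.58 on the dimmest (9.76, 10.08 and 9.62 with HFD against 9.98, 10.37 and 10.87 with UR). On the brightest probe of Gsta1 the UR arrays read 10.84, 11.29 and 12.15, -0.24 from the HFD (adjusted p = 0.436). The 3 probes of Gsta1 thus placed the UR mean on different sides of the HFD mean, with overlapping arrays, though on all 3 every UR array was above every ND array. The call of its second probe was lost without HFD replicate 2, UR replicate 1 or UR replicate 2, and that of the dimmest without HFD replicate 3 or UR replicate 3.

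Keap1 had 4 probes of similar brightness. They read 10.27, 10.31 and 10.31 with the HFD against 9.89, 9.93 and 9.94 with UR on probe 1, and 10.03, 9.97 and 10.01 (HFD) against 10.39, 10.34 and 10.34 (UR) on probe 2. Probe 3 read 9.97, 10.03 and 10.06 (HFD) against 9.56, 9.48 and 9.51 (UR), and probe 4 9.41, 9.47 and 9.35 (HFD) against 9.10, 9.11 and 9.29 (UR). The differences were -0.38, 0.35, -0.51 and -0.24, so that 3 probes fell and 1 rose, and with median scaling probes 1 and 4 no longer passed. Probe 4 was also short of the test without HFD replicate 2 or UR replicate 2. Prdx2, a cytosolic peroxiredoxin abundant in red blood cells, fell by 0.29 on its brightest probe (13.08, 13.19 and 13.15 with HFD against 12.82, 12.82 and 12.91 with UR), a difference of 0.00 with median scaling. Its dimmer probes rose by 0.29 (9.14, 9.27 and 9.21 with HFD against 9.47, 9.44 and 9.57 with UR) and 0.50 (8.19, 7.96 and 8.16 with HFD against 8.60, 8.60 and 8.61 with UR).

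**Figure D2:**
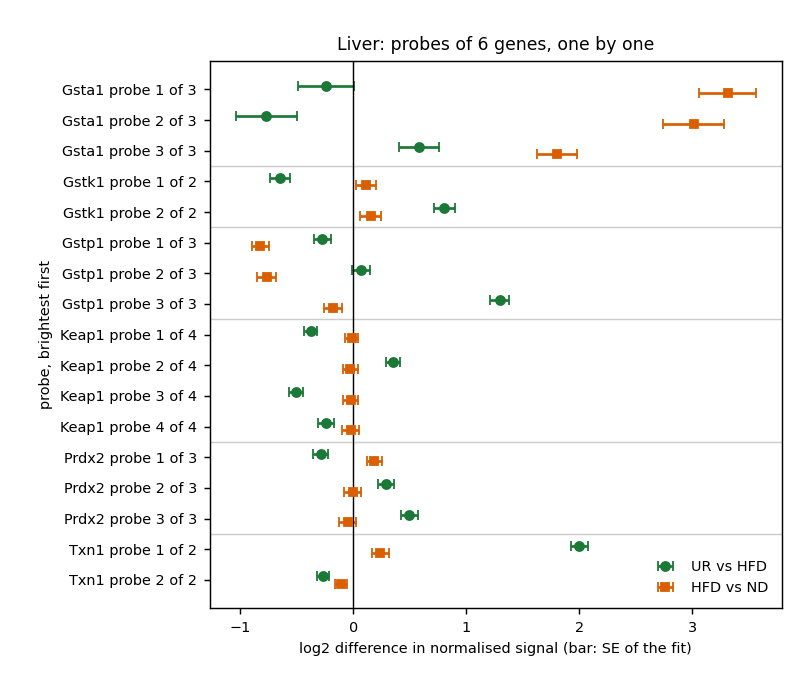
Log2 difference in the liver (horizontal axis) for each kept probe of the 6 genes that held called probes of both signs (vertical axis, brightest first); circles are UR against HFD, squares HFD against ND, bars the SE of the fit. Probes of a gene lie on both sides of 0 for UR, as with Gstk1 at -0.65 and 0.81, and not past the test on both sides for the HFD.

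Of the further genes of the pathway in the liver with UR, 9 of 36 NRF2 target and partner genes rose and 12 fell, 6 of 19 glutathione and thioredoxin genes rose and 6 fell, and 6 of 20 selenoprotein and related genes rose and 8 fell. Medians were -0.09, -0.01 and -0.10, against -0.09 over all genes. The shares of all kept probes were 21.9% up and 33.3% down. Esd, S-formylglutathione hydrolase, rose by 1.79, Glrx3, a glutaredoxin, by 1.56, and Aldh1a1, a retinal dehydrogenase, by 1.82. Selenok and Pon3 rose by 1.74 and 1.48. The genes named here are all rises, though on each list falls were as many as rises or more. Their values are from the brightest probe of each gene, and these lists were counted with quantile normalisation only.

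In WAT, the HFD lowered Gpx3 and transferases of the alpha, pi, theta, kappa and zeta classes and raised Hmox1, Srxn1 and Ephx1. Of 67 member probes 14 rose and 27 fell, against 38.1% of all kept probes past the test (17.4% up and 20.7% down). On brightest probes 11 genes rose and 18 fell of 42. The median difference of the brightest probes was -0.02, as over all genes. All 7 genes of the theta, pi, kappa and zeta classes fell, and the omega-class Gsto1 rose. Of 6 kept genes of the mu class, 2 rose and 0 fell. These were Gstm1, higher by 0.24 (SE 0.06), and Gstm2, higher by 0.17 (SE 0.06) on the brightest of its 3 probes, which was short of the test with median scaling.

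Gsta4 read 10.23, 10.23 and 10.11 with the ND and 8.66, 8.56 and 8.68 with the HFD (difference -1.56, SE 0.06, adjusted p = 7.28e-09), while in the liver it had risen by 0.81. Gpx3 read 14.46, 14.78 and 14.29 (ND) and 13.06, 12.74 and 13.12 (HFD), a difference of -1.53 (SE 0.12). Gsta3 read 13.97, 13.71 and 13.76 (ND) and 12.56, 12.78 and 12.81 (HFD), a difference of -1.10 (SE 0.09), and its dimmer probe fell by 0.75. The ND and HFD arrays lay far apart for each of these 3 genes. The window in front of Gsta3 holds the core motif, and the gene fell here and did not pass on its brightest probe in the liver. The part of the motif in these values was not tested.

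Gstt1, a theta-class transferase, read 12.01, 12.13 and 11.72 with the ND and 11.07, 10.89 and 11.08 with the HFD (difference -0.94, SE 0.09). Gstt2 read 11.03, 11.47 and 10.75 (ND) and 10.24, 10.06 and 10.38 (HFD), a difference of -0.86 (SE 0.14). Mgst3 read 14.48, 14.46 and 14.28 (ND) and 13.76, 13.76 and 13.86 (HFD), a difference of -0.61 (SE 0.06). Every HFD array lay below every ND array for these genes as well. Smaller falls were those of Gstt3 (0.56), Mgst1 (0.47), the cytosolic superoxide dismutase Sod1 (0.44), the mitochondrial thioredoxin Txn2 (0.35) and peroxiredoxin Prdx3 (0.35), and Cat (0.23). Txnip read 15.80, 15.93 and 15.74 (ND) and 15.54, 15.38 and 15.62 (HFD) and fell by 0.31 (SE 0.07, adjusted p = 0.0038).

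Hmox1 read 9.58, 10.07 and 9.58 with the ND and 10.97, 10.77 and 10.57 with the HFD, a rise of 1.03 (SE 0.13, adjusted p = 4.41e-05). Srxn1 read 10.10, 10.14 and 10.10 (ND) and 10.996, 10.91 and 10.77 (HFD), a difference of 0.78 (SE 0.08), and all 3 of its probes rose. Ephx1 read 12.06, 11.92 and 11.93 (ND) and 12.66, 12.61 and 12.68 (HFD), a difference of 0.68 (SE 0.07). These rises left no overlap between the groups.

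Gsto1, the omega-class transferase, read 12.24, 12.32 and 12.18 with the ND and 12.66, 12.70 and 12.66 with the HFD (difference 0.43, SE 0.06). Sod3 read 10.70, 10.83 and 10.68 (ND) and 11.04, 11.04 and 11.08 (HFD), a difference of 0.32 (SE 0.07), and Prdx4 12.36, 12.04 and 12.18 (ND) and 12.51, 12.48 and 12.43 (HFD), a difference of 0.28 (SE 0.08). Sod2 rose by 0.27, Txn1 by 0.26 and Prdx1 by 0.24, the last 2 short of the test with median scaling and Txn1 with overlapping arrays. Nfe2l2 (9.52, 9.85 and 9.66 with the ND, 9.64, 9.67 and 9.64 with the HFD) had a difference of -0.03 (adjusted p = 0.821), Keap1 of 0.08 (adjusted p = 0.317) and Nqo1 of 0.05. Macrophage markers moved with these rises and falls, with 6 of 7 kept markers up, summed signals that did not overlap between the ND and the HFD, and Clec4f detected on no WAT array. Fibroblast markers rose as well (4 of 6), with summed signals of 55524 to 64513 on ND arrays and 68807 to 71193 on HFD arrays and Lrat detected on none. Of 7 adipocyte markers 5 fell and 1 rose, with summed signals of 196071 to 214836 and 188549 to 203266, and 5 of 5 mesothelium and 3 of 3 red blood cell markers fell. The part of these cell types in the members' differences was not tested.

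Of the further genes of the pathway in WAT with the HFD, 14 of 35 NRF2 target and partner genes rose and 8 fell, with Akr1b8, an aldo-keto reductase, up by 1.15 and Blvra, biliverdin reductase, up by 0.67. Of 22 glutathione and thioredoxin genes 4 rose and 11 fell, led by Chac1, a glutathione-degrading enzyme, which fell by 1.23. Of 19 selenoprotein and related genes 2 rose and 7 fell. Over all kept probes of WAT, 17.4% rose and 20.7% fell. Pon1, a paraoxonase, was detected on no HFD array and lay at least 2.48-fold below its ND level, and Sesn2, a sestrin, fell by 0.84.

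**Figure D3:**
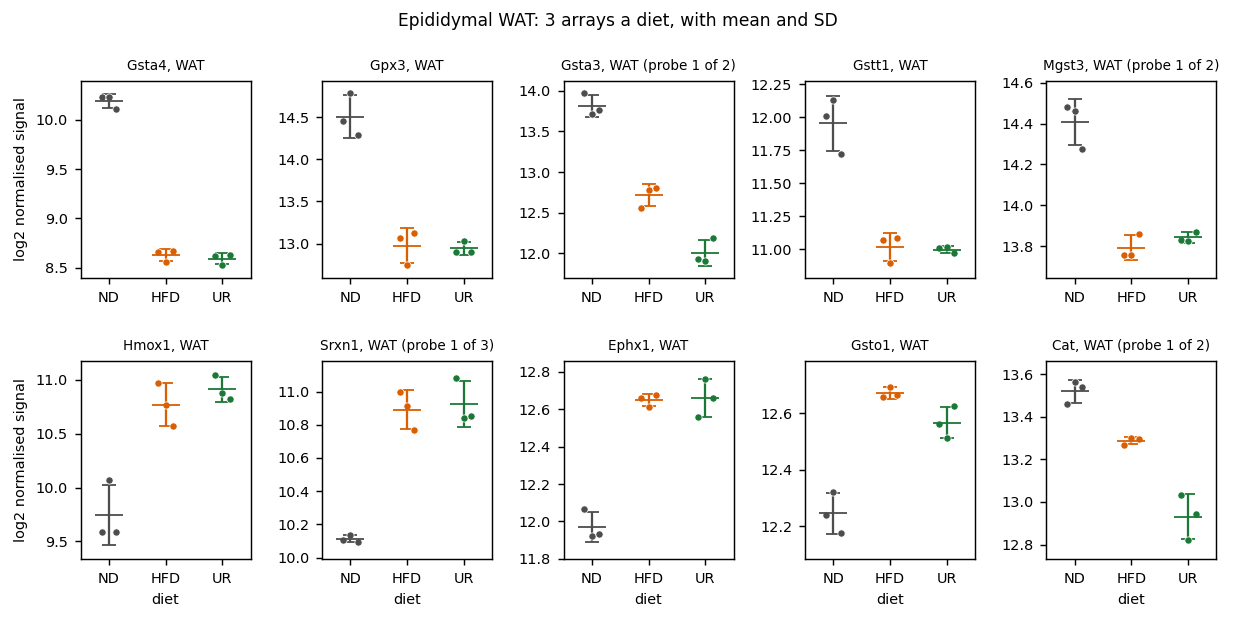
Log2 normalised signal (vertical axis, a scale of its own in each panel) of 10 genes in epididymal WAT by diet (horizontal axis); points are the 3 arrays of a diet, the bar and whiskers their mean and SD. Gsta4 read 10.11 to 10.23 with the ND and 8.53 to 8.68 with the HFD or UR, and Hmox1 9.58 to 10.07 with the ND and 10.57 to 11.04 with the HFD or UR.

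UR changed few members in WAT beyond the HFD. Of 67 member probes 0 rose and 10 fell, against 7.54% of all kept probes (3.41% up and 4.13% down). The median of the brightest probes was -0.02, against 0.01 over all genes. By limma, 20 member probes had an unadjusted p under 0.05. The count fell to 4 without HFD replicate 2 or UR replicate 1, to 5 without HFD replicate 3 or UR replicate 2, and to 6 without UR replicate 3, and to 2 (1 up and 1 down) with rank products, the test the methods name for the arrays.

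Gsta3 read 12.56, 12.78 and 12.81 with the HFD and 11.94, 11.90 and 12.19 with UR, a further fall of 0.70 (SE 0.09, adjusted p = 0.00148), and its dimmer probe fell by 0.36. Cat read 13.27, 13.30 and 13.30 (HFD) and 13.03, 12.82 and 12.94 (UR), a difference of -0.36 (SE 0.06), against -0.08 on its dimmer probe (adjusted p = 0.575). Gstz1, the zeta-class transferase of tyrosine breakdown, read 14.61, 14.71 and 14.73 (HFD) and 14.28, 14.31 and 14.44 (UR), a difference of -0.34 (SE 0.06). On the brightest probes of these 3 genes the UR arrays were the lowest of the 9.

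Mgst2 read 12.17, 12.33 and 12.22 with the HFD and 11.78, 11.75 and 12.05 with UR (difference -0.38, SE 0.08), and leaving out HFD replicate 2 or 3 or UR replicate 1 or 2 ended this call. The other falls were on dimmer probes of Gstm2, Gstp1, Gstk1 and Keap1. Of the 4 probes of Keap1, the brighter 2 had differences of 0.05 and 0.10, short of the test, and the dimmer 2 fell by 0.31 and 0.37. Nfe2l2 read 9.46, 9.45 and 9.44 with UR (difference -0.20, adjusted p = 0.129), which passed the test at -0.20 without ND replicate 2, with array weights or over only the 6 arrays compared, and Txnip had a difference of 0.02 (adjusted p = 0.905). Macrophage markers did not pass in this comparison (0 of 7), while 4 of 5 mesothelium markers fell, with summed signals of 2251 to 2933 on HFD arrays and 1110 to 1225 on UR arrays. Of 7 adipocyte markers 3 fell and 1 rose, and 2 of 6 fibroblast markers fell (68807 to 71193 and 58197 to 63552). Their part was not tested. Against the ND, 12 member probes rose and 30 fell with UR (44.1% of all kept probes passed, 19.9% up and 24.2% down).

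Of the further pathway genes in WAT with UR, 0 of 35 NRF2 target and partner genes rose and 3 fell, 1 of 22 glutathione and thioredoxin genes rose and 5 fell, and 0 of 19 selenoprotein and related genes rose and 2 fell. All kept probes had shares of 3.41% up and 4.13% down. Chac1 rose by 0.40 after its fall with the HFD.

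Muscle had fewer member probes past the test with the HFD (10 of 65) than the liver (33 of 75) or WAT (41 of 67). Of the 65, 5 rose and 5 fell, against 13% of all kept probes (6.02% up and 7.02% down), a share near the background. With median scaling 1 rose and 14 fell, against 0.686% and 19.3% of all kept probes, since that scaling moved the median of all kept probes by -0.11, from 0.01 to -0.11. The count with quantile normalisation was 6 without ND replicate 2 or ND replicate 3, and 5 without HFD replicate 1.

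Srxn1 read 9.87, 9.96 and 9.89 with the ND and 10.38, 10.35 and 10.56 with the HFD (difference 0.52, SE 0.07, adjusted p = 0.000627). Its other probes rose by 0.43 and 0.30, which did not pass with median scaling. The gene rose on its brightest probe with the HFD in the liver, WAT and muscle alike, by 0.44, 0.78 and 0.52. Ephx1 also rose in all 3 tissues, and in muscle read 10.56, 10.67 and 10.65 (ND) and 10.85, 10.79 and 10.92 (HFD), a difference of 0.23 (SE 0.06), though the difference was 0.06 and short of the test with median scaling. Sod1 read 12.66, 12.73 and 12.68 (ND) and 12.83, 12.87 and 12.91 (HFD), a difference of 0.18 (SE 0.05), a call that median scaling also ended (0.02). Without ND replicate 1, HFD replicate 1 or HFD replicate 3 the call for Ephx1 was lost, and without ND replicate 1, ND replicate 3, HFD replicate 2 or HFD replicate 3 that for Sod1.

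Gpx3 fell in muscle as in WAT, from 10.46, 10.66 and 10.36 (ND) to 10.13, 10.03 and 10.17 (HFD), a difference of -0.38 (SE 0.07). Mgst1 read 11.70, 11.74 and 11.66 (ND) and 11.21, 11.40 and 11.40 (HFD), a difference of -0.37 (SE 0.07), and both of its probes fell. Mgst2 read 7.51, 7.49 and 7.46 (ND) and 7.31, 7.26 and 7.31 (HFD) and lay at least 1.06-fold below the ND with the HFD, where no array detected it (adjusted p = 0.0256). Leaving out any HFD array, ND replicate 1 or ND replicate 2 ended the call for Mgst2. Nfe2l2 read 8.73, 9.05 and 8.78 (ND) and 8.42, 8.64 and 8.85 (HFD), a difference of -0.22 (adjusted p = 0.16), Keap1 differed by 0.04 (adjusted p = 0.771) and Txnip by -0.14 (adjusted p = 0.404). For Nfe2l2 the median-scaled difference was -0.37 and passed, and without HFD replicate 3 the difference was -0.32 and passed.

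With UR in muscle, 9 of 65 member probes rose and 4 fell, against 22.0% of all kept probes (11.8% up and 10.2% down), and with median scaling 10 rose and 2 fell (10.8% and 2.16% of all kept probes). A probe could be kept through its UR arrays alone. Of the 56 member probes detected on all 9 muscle arrays, 6 rose and 4 fell with quantile normalisation. On brightest probes 8 genes rose and 3 fell of 45. Catalase and the theta-class transferases Gstt2 and Gstt3 rose, and Srxn1 fell toward its ND level on its brighter 2 of 3 probes.

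Gstt3 read 8.34, 8.42 and 8.24 with the HFD and 8.85, 9.01 and 8.96 with UR (difference 0.61, SE 0.07, adjusted p = 6.18e-05). Cat read 12.03, 12.02 and 11.97 (HFD) and 12.33, 12.47 and 12.41 (UR), a difference of 0.40 (SE 0.06), against 0.20 on its dimmer probe (adjusted p = 0.0689). Both genes had also risen with UR in the liver, and on their brightest probes both had every UR array of muscle above all ND and HFD arrays. Nfe2l2 read 8.42, 8.64 and 8.85 (HFD) and 8.96, 9.02 and 9.03 (UR), a rise of 0.37 (SE 0.10, adjusted p = 0.0167) that was lost without HFD replicate 1, UR replicate 2 or UR replicate 3.

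Gstt2 read 7.81, 7.86 and 7.69 with the HFD and 7.99, 8.11 and 8.22 with UR (difference 0.31, SE 0.09), and its dimmer probe was at least 1.11-fold higher, being detected on no HFD array. Mgst2 read 7.53, 7.62 and 7.62 with UR and was at least 1.14-fold higher than with the HFD. Gsta2 read 7.22, 7.33 and 7.23 (HFD) and 7.44, 7.60 and 7.58 (UR) and was at least 1.1-fold higher by the same bound. Signals of the dimmer Gstt2 probe, Mgst2 and Gsta2 thus lay close to the detection limit in muscle. The Gsta2 probe was kept through its UR arrays alone, as no ND or HFD array detected it. Txn1 rose by 0.26 and Ephx1 by 0.17, the latter short of the test with median scaling. The call for Gstt2 was lost without HFD replicate 3, UR replicate 2 or UR replicate 3.

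Srxn1 fell from 10.38, 10.35 and 10.56 with the HFD to 10.12, 9.88 and 9.89 with UR (difference -0.47, SE 0.07), where its ND arrays read 9.87, 9.96 and 9.89. Its second probe fell by 0.26. Its dimmest read 8.34, 8.16 and 8.23 (ND), 8.59, 8.49 and 8.54 (HFD) and 8.67, 8.59 and 8.26 (UR), with a difference of -0.03 between UR and the HFD (adjusted p = 0.806). Mgst3 read 13.70, 13.70 and 13.60 (HFD) and 13.44, 13.46 and 13.34 (UR), a difference of -0.25 (SE 0.05). Gsta4 read 9.66, 9.58 and 9.71 (HFD) and 9.38, 9.41 and 9.56 (UR), a difference of -0.20 (SE 0.06), short of the test with median scaling and without HFD replicate 1, HFD replicate 3, UR replicate 1 or UR replicate 2. Keap1 differed by 0.01 (adjusted p = 0.905) and Txnip by -0.21 (adjusted p = 0.171). Fibroblast markers rose with UR in muscle (5 of 6), with summed signals of 13589 to 14608 on HFD arrays and 17155 to 18584 on UR arrays, and Lrat was detected on no array. Of 5 endothelial markers 3 rose (8039 to 8372 and 9635 to 10434) and of 5 macrophage markers 2 rose, and the part of these cell types was not tested. Against the ND, 6 member probes rose and 5 fell with UR (15.6% of all kept probes passed, 8.31% up and 7.25% down), and 7 passed in all without UR replicate 1 or UR replicate 2. With median scaling 4 rose and 16 fell, against 3.26% and 15.9% of all kept probes.

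Of the further pathway genes in muscle, 4 of 31 NRF2 target and partner genes rose and 3 fell with the HFD, and 5 rose and 4 fell with UR. Me1, the NADPH-producing malic enzyme, fell by 0.31 with the HFD and rose by 0.59 with UR, and Idh1, another source of NADPH, fell by 0.58 and rose by 0.40. Of 21 glutathione and thioredoxin genes 2 rose and 4 fell with the HFD and 4 rose and 2 fell with UR, with Esd up by 0.60 and Glrx3 by 0.55. Of 15 selenoprotein and related genes 3 rose and 4 fell in each comparison. Shares of all kept probes of muscle were 6.02% up and 7.02% down with the HFD, and 11.8% up and 10.2% down with UR.

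**Figure D4:**
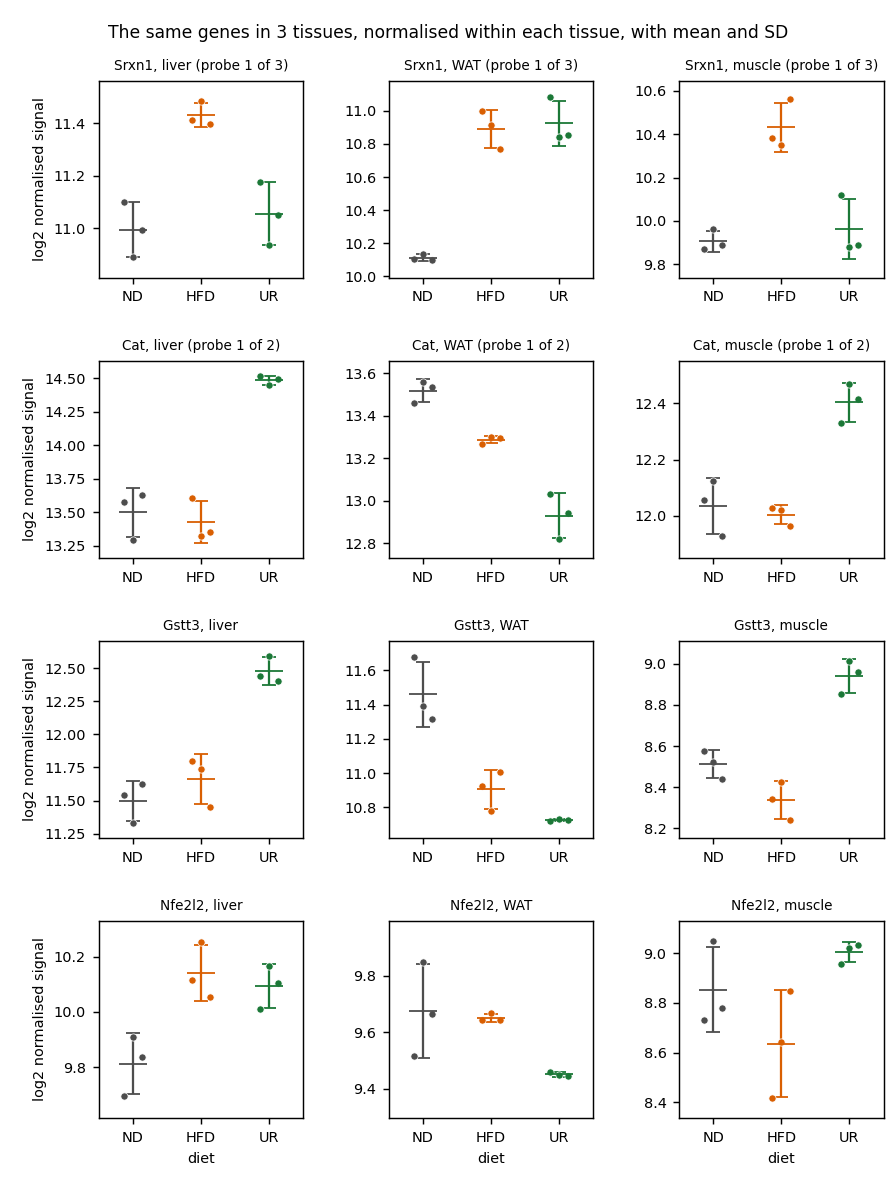
Log2 signal normalised within each tissue (vertical axis, a scale of its own in each panel) of the brightest probe of Srxn1, Cat, Gstt3 and Nfe2l2 in the liver, WAT and muscle by diet (horizontal axis); points are the 3 arrays of a diet, the bar and whiskers their mean and SD. Srxn1 rose with the HFD by 0.44, 0.78 and 0.52 in the 3 tissues, and its UR arrays lay near the ND arrays in the liver and muscle and near the HFD arrays in WAT.

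The effects of a diet were tested for a difference between tissues in 1 model over the 27 arrays, which treated arrays of different tissues as independent. For the HFD, 35 of 66 member probes differed between the liver and WAT (31.5% of all probes did), 24 of 64 between the liver and muscle (25.8%) and 23 of 62 between WAT and muscle (30.1%). For UR these were 37 of 66 (50.3%), 33 of 64 (43.3%) and 11 of 62 (18.7%), the last falling to 7 without UR replicate 3 of muscle. Of the 35, 28 were higher in the liver. For UR in the liver against WAT, 21 were higher and 16 lower in the liver with quantile normalisation, and 28 and 3 with median scaling. Against muscle the same split was 16 and 17, and 27 and 2 with median scaling. For the HFD between WAT and muscle it was 7 higher and 16 lower in WAT, and 9 and 9 with median scaling. These splits by direction were not counted over all probes, so they have no background beside them.

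Differences between tissues are given here for Nfe2l2, Hmox1 and Srxn1, and not for Nqo1 and Ephx1, the other NRF2 target enzymes of the list. Within tissues, Nqo1 rose past the test with the HFD in the liver alone, and Ephx1 in the liver, WAT and muscle. Nfe2l2, which encodes NRF2, rose with the HFD in the liver, and that effect exceeded its effect in WAT by 0.35 (adjusted p = 0.0365) and its effect in muscle by 0.54 (adjusted p = 0.00276), with both calls kept under median scaling. With UR, the effect on Nfe2l2 in WAT minus that in muscle was -0.57 (adjusted p = 0.00283) and -0.60 with median scaling, which also passed the test. The UR effect in the liver minus that in muscle was -0.42 (adjusted p = 0.0104), but -0.21 and short of the test with median scaling. The rise of Hmox1, the haem-degrading enzyme, with the HFD was larger in WAT than in the liver, with a difference of -0.61 (liver minus WAT, SE 0.18, adjusted p = 0.00973), and it exceeded the effect in muscle by 1.07 (adjusted p = 3.97e-05). For the brightest probe of Srxn1, which encodes sulfiredoxin, the UR effect in WAT minus that in muscle was 0.50 (adjusted p = 0.00243), while its other probes gave 0.26 and -0.05 and did not pass. For the same brightest probe, the UR effect in the liver minus that in WAT was -0.41 (adjusted p = 0.0032), which became -0.17 and short of the test with median scaling.

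**Figure D5:**
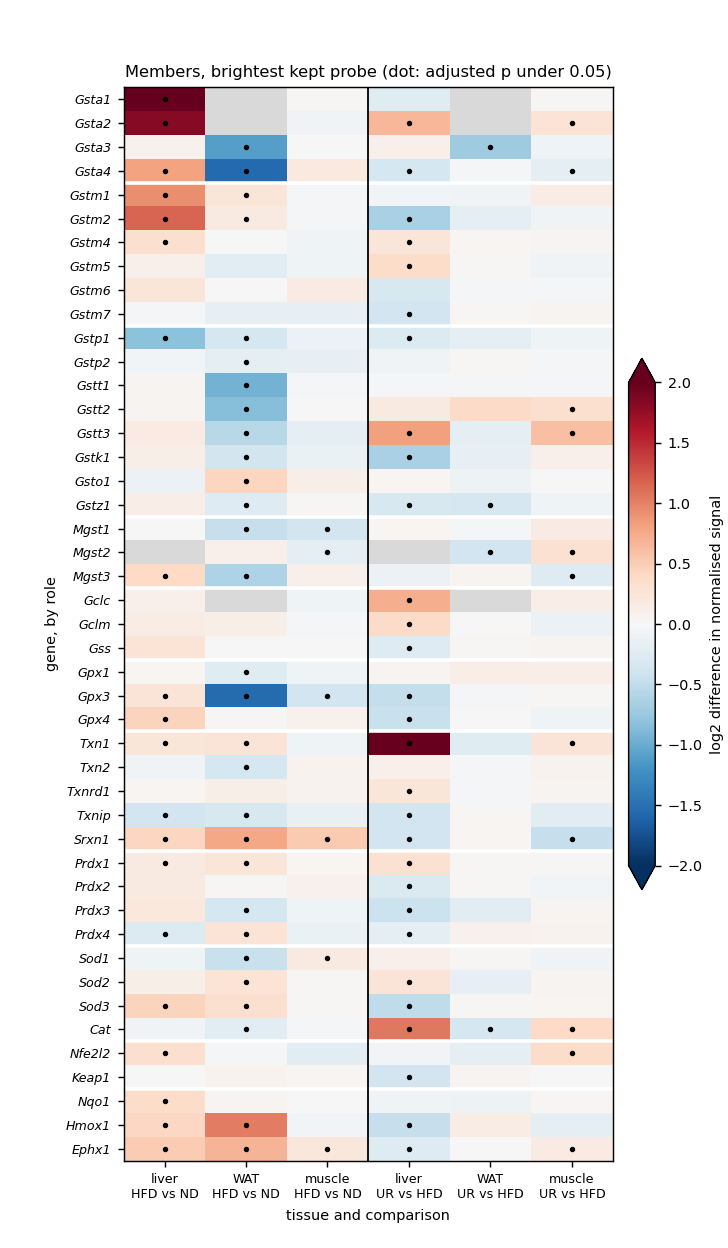
Log2 difference (colour, drawn from -2 to 2 with larger values at the end colours) for the brightest kept probe of 45 genes (rows, by role) in 3 tissues and 2 comparisons (columns); a black dot marks an adjusted p under 0.05 and grey a gene not kept. With the HFD, the alpha class stood at 3.31, 1.82 and 0.81 for Gsta1, Gsta2 and Gsta4 in the liver, and at -1.10 and -1.56 for Gsta3 and Gsta4 in WAT.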

How the data were processed

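RNA of 27 pools (3 for each diet and tissue) was hybridised to Illumina MouseWG-6 v2 BeadChips. The authors deposited, for each tissue, the non-normalized signal intensity of every probe with its detection p-value, read with the array maker's software; no source used here says whether background was subtracted. The authors also deposited log2 values normalised by quantiles, which served as an alternative for the liver and WAT. The 9 muscle columns of that table equal those of WAT in all 45281 rows and were not used. The methods name rank products for the arrays and Student tests for other measurements; both were run as alternatives.

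For each tissue, its 9 arrays of intensities were quantile-normalised together and put on the log2 scale, with no background correction. Kept probes were fitted with limma 3.58.1 (R 4.3.3; empirical Bayes with an intensity trend, two-sided), with Benjamini-Hochberg adjustment over all kept probes of the tissue. Tissue contrasts used all 27 arrays. Probe names came from the platform's annotation, which listed 34903 of 45281 probes (34885 with 1 symbol, 18 with several), and 34807 identifiers matched the reference table. An "at least" fold is the higher group's mean over the higher of the dim probe's own signal and the lowest signal of a detected probe. The members and lists were chosen with earlier results of these data known. Values by array are given for up to 6 largest rises and falls past the test in each tissue and comparison, for members with opposite probes, and for Nfe2l2, Keap1 and Txnip. On simulated data, 98 to 100 of 100 probes changed by 0.5 (log2) were recovered within a tissue, and 83 of 100 between liver and WAT. Simulated arrays shared the HFD means of their tissue, and only 100 probes were changed by 0.5 and 100 by 1, in both directions. Far fewer probes differed than in the liver with UR, so the simulation does not test the scaling there. Replicate arrays correlated at 0.995 to 0.997, and none was a duplicate. Same-numbered arrays of different diets correlated at -0.153 to 0.195 in their deviations, over 0.1 for 1 of 9 pairs in each tissue, so the replicate numbers were not used as pairs. The number of arrays limits the precision.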

Additional observations from a re-analysis of the deposited data

Results flagged for a closer look

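The results listed here passed a test of the difference between the effects of a diet in 2 tissues (limma interaction, adjusted over all probes). They are given as values with no explanation, and up to 3 per pair of tissues are named, those with the largest differences when each gene is represented by 1 probe, its brightest over the 27 arrays. Each of them kept its direction and its call with median scaling.

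For the HFD between the liver and WAT, Gsta4 stood apart by 2.36 (SE 0.14, adjusted p = 3.77e-13), with 0.81 in the liver and -1.56 in WAT. Gpx3 stood apart by 1.80 (0.26 and -1.53) and Gsta3 by 1.19 (0.09 and -1.10). These 3 genes were lower in WAT and not in the liver. Between the liver and muscle, Gsta1 stood apart by 3.29 (SE 0.25, adjusted p = 6.19e-10), with 3.31 in the liver and 0.02 in muscle, Gsta2 by 1.89 (1.82 and -0.07) and Gstm2 by 1.20 (1.16 and -0.04). Between WAT and muscle, the differences were -1.75 for Gsta4 (-1.56 and 0.19), -1.15 for Gpx3 (-1.53 and -0.38) and -1.11 for Gsta3 (-1.10 and 0.01). In muscle the Gsta2 probe was detected only on UR arrays, and those of Gsta1 and Gsta3 were not detected on all 9 arrays. Their muscle signals were thus close to the detection limit, and the muscle effects do not show that these genes stayed the same there.

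For UR against the HFD, the brighter Txn1 probe stood apart by 2.25 (SE 0.12, adjusted p = 1.74e-14) between the liver and WAT, with 2.00 and -0.25, and by 1.74 between the liver and muscle (0.26 in muscle). Cat stood apart by 1.41 between the liver and WAT (1.06 and -0.36), by 0.66 between the liver and muscle (0.40 in muscle) and by -0.76 between WAT and muscle. Gstt3 stood apart by 0.99 between the liver and WAT (0.82 and -0.18) and by -0.78 between WAT and muscle (0.61 in muscle). The second Gstk1 probe of the liver stood apart by 0.71 between the liver and muscle (0.81 and 0.10), while the other Gstk1 probe fell in the liver. Mgst2 stood apart by -0.68 between WAT and muscle (-0.38 and 0.30), though no HFD array of muscle detected it. Outside these, the dimmest Gstp1 probe of the liver stood apart with UR by 1.43 between the liver and WAT (1.29 and -0.13) and by 1.12 between the liver and muscle (0.17 in muscle).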

How the results depend on the processing

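The 80 named probe results were each recomputed under the alternatives, 1724 values in all. Of these, 1579 kept their side of the threshold, 139 kept the direction but lost the call, 5 gained it and 1 reversed. Direction was compared only where the main result or the alternative passed. Among the 1579, a result short of the test in both may thus have changed sign. The reversal was Nfe2l2 in the liver with UR against the HFD, at 0.22 with median scaling. Counts of member probes past the test moved by over 1.5 times as follows. With the brightest probe of each gene, 21, 29 and 29 passed in the liver (HFD against ND, UR against HFD, UR against ND), and 4 and 26 in WAT for UR against HFD and against ND, fewer since fewer probes were tested. With rank products these were 12, 6 and 7 in the liver, 10, 2 and 7 in WAT, and 2, 3 and 3 in muscle. With the Student test, which the methods name for other measurements, 10 passed in the liver for the HFD, 24 and 0 in WAT for the HFD and for UR against HFD, and 0, 4 and 0 in muscle. Where it gave 0, an unadjusted p under 0.05 was reached by 19 (WAT), 15 and 18 (muscle) member probes. Array weights gave 16 in WAT for UR against HFD, and median scaling 20 in muscle for UR against ND. The cause was not tested.

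Leaving out 1 array gave counts of 28 to 35, 41 to 52 and 47 to 53 in the liver, in the same order, 37 to 41, 4 to 14 and 36 to 43 in WAT, and 5 to 11, 9 to 13 and 7 to 11 in muscle. For differences between tissues they were 31 to 37, 19 to 26 and 19 to 25 for the HFD (liver and WAT, liver and muscle, WAT and muscle), 33 to 40, 28 to 35 and 7 to 13 for UR, and 66 to 68, 70 to 73 and 60 to 64 for the ND levels. With the replicate number as a block, the replicate block fit called 35, 51 and 54 member probes in the liver, 40, 10 and 43 in WAT and 10, 14 and 13 in muscle. Probes near the detection limit, such as Mgst2 and Gsta2 in muscle, have only a bound on their fold.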
